A study of Mus musculus with 6 samples.

Results

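The genes that encode the proteins of the cytosolic ribosome were followed on 6 Affymetrix mouse arrays of C2C12 cells. A gene belonged to the set if its symbol in the platform annotation was Rpl or Rps followed by a digit, or was Rplp0, Rplp1, Rplp2 or Rpsa, and if at least 1 probe set named that gene alone. The Rps6k kinases and names marked as pseudogenes were left out. This gave 50 genes of the 18192 measured, on 106 of 45033 probe sets. The set holds 20 proteins of the large subunit, 21 of the small subunit, 2 of the stalk, and 6 paralogues (genes that resemble another ribosomal protein gene). It also holds Rps19bp1, whose product binds the ribosomal protein Rps19 and is not itself part of the ribosome. One of the 6 paralogues, Rps4l, is annotated as a transcribed pseudogene in the RefSeq gene table of assembly GRCm38.p6. A further 31 names of the ribosomal protein type, among them Rpl3, Rpl5, Rpl10 and Rplp1, were covered only by probe sets that also name other genes, often pseudogenes, and are described separately.

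C2C12 is an established line of mouse myoblasts, the precursor cells of skeletal muscle, which leave the cell cycle and fuse into myotubes when serum is lowered. The control group was 3 cultures transfected with a short hairpin RNA (shRNA) against GFP, a protein with no gene in mouse cells. The knockdown group was 3 cultures transfected with an shRNA against PRDM2, a zinc finger protein of the PR/SET domain family. All 6 samples were taken after 28 hours in Dulbecco's medium holding 2% horse serum, and the labels number them 1 to 3 in each group and call them biological replicates. The sources used here do not say whether they came from separate transfections, so p-values measure the spread between these samples only. The comparison asks how the transcripts of differentiating myoblasts differ when PRDM2 is targeted.

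The deposited values were probe set intensities with medians of 10.7 to 11.4 per array. They are given below as log2(intensity + 16) after quantile normalization, so that 4 is the floor of the scale, and a level is compared only between arrays, on the same probe set. Prdm2 itself was read on the brightest of its 3 own probe sets, and values of the others are not given here. That probe set read 6.19, 6.42 and 5.94 in control replicates 1 to 3. It read 6.67, 6.32 and 6.02 in knockdown replicates 1 to 3. The difference (knockdown minus control) was 0.15, with a 95% interval of -0.31 to 0.62 (limma). A lower Prdm2 mRNA was thus not seen on this probe set, but the interval includes a reduction. The direction of every difference rests on the labels. Control replicate 2 stood apart from the other controls and lay closest to knockdown replicate 2. The 14 skeletal muscle markers had a mean of 10.04 to 10.32 on control arrays and 10.27 to 10.31 on knockdown arrays, with Myog and Acta1 among them. The mean of 8 neuron markers was 5.89 to 6.15 on control replicates 1 and 3 and 5.03 to 5.15 on the other 4 arrays. Of these 8, 3 had a difference above 0 and 5 below, and 4 were near the floor. The mean of 8 smooth muscle and fibroblast markers was 6.67 and 6.76 on control replicates 3 and 1 and 7.26 to 7.58 on the other 4. That list was split, with 6 markers above 0 and 2 below, and 2 near the floor. At an unadjusted p under 0.05 (limma) 3 were higher and 2 lower in the knockdown, where 3.3% of all genes passed. Adipocyte, macrophage and endothelial lists had means of 4.33 to 5.28 on all arrays. The part of these marker differences in the values below was not tested.

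A ribosome is built from 2 subunits, each a folded ribosomal RNA held by many small basic proteins, and the proteins are needed in equal numbers. Their mRNAs are among the most abundant of any cell and start with a run of pyrimidines (C and T) that places their translation under the control of mTOR, the growth-sensing kinase. Muscle cells draw on ribosome supply during growth, and striated muscle carries its own paralogue of one large-subunit protein, Rpl3l. In cultured myoblasts, lowering serum moves cells from proliferation to differentiation, which changes the demand for new ribosomes.

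Ribosomal protein mRNAs were nearly level between the groups. No member differed at an adjusted p under 0.05 (limma, Benjamini-Hochberg over 18192 genes), and none did at an unadjusted p under 0.05. Across all genes 0% were called after adjustment and 3.3% (600 genes) passed unadjusted. Of the 50 members, 30 had a log2 fold change (knockdown minus control) above 0 and 20 below, where 48.8% of all genes were above 0. The median was 0.02, beside -0.0033 for all genes. The difference was under 0.1 in either direction for 38 of 50 members, beside 61.4% of all genes. The 95% interval lay within -0.3 to 0.3 for 31 members, beside 35.6% of all genes. The median standard error was 0.09 for members and 0.11 for all genes. Members were far brighter than most genes, with a mean above 10 log2 units in 38 of 50 members and in 1.52% of all genes. The part of brightness in these shares and errors was not tested. In bulk RNA, a change in the share of differentiated cells and a change in mRNA per cell cannot be told apart, and the normalization removes any change common to all genes.

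The mean over the whole set was slightly higher on the knockdown arrays, while the median overlapped between the groups. The mean of the 50 members was 10.10, 10.11 and 10.11 on control replicates 1 to 3 and 10.15, 10.12 and 10.16 on knockdown replicates 1 to 3. The groups did not overlap, at 10.11 ± 0.01 and 10.14 ± 0.02 (SD, n = 3), and the knockdown was higher within each replicate number, by 0.05, 0.0053 and 0.04. With the deposited scaling or median centring the groups overlapped and the knockdown was higher within 2 of the 3 numbers, at -0.0021 and -0.0020 within number 2. After quantile normalization, the members' median deviation from the gene mean was -0.025, 0.012 and -0.018 on control replicates 1 to 3. It was -0.0020, 0.0044 and 0.019 on knockdown replicates 1 to 3, so the groups overlapped in the median. Single members weigh on the mean. Rpl27a, on a dim probe set, was 0.80, 0.45 and 0.15 higher within numbers 1 to 3. The median member difference within numbers 1 to 3 was 0.01, -0.0023 and 0.02, beside -0.025, 0.0013 and 0.0065 for all genes. A mean without Rpl27a was not computed, so the higher mean is not a shift shown for the set at large. The members were chosen with earlier results known, so no test is given for their mean. All 106 member probe sets together, 0.235% of the probe sets, carried 4.82%, 4.72% and 4.95% of the summed deposited intensity on control replicates 1 to 3. They carried 4.91%, 4.83% and 5.21% on knockdown replicates 1 to 3. The groups overlapped in this share, and the knockdown was higher within each replicate number, by 0.0936, 0.108 and 0.260 percentage points.

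**Figure D1:**
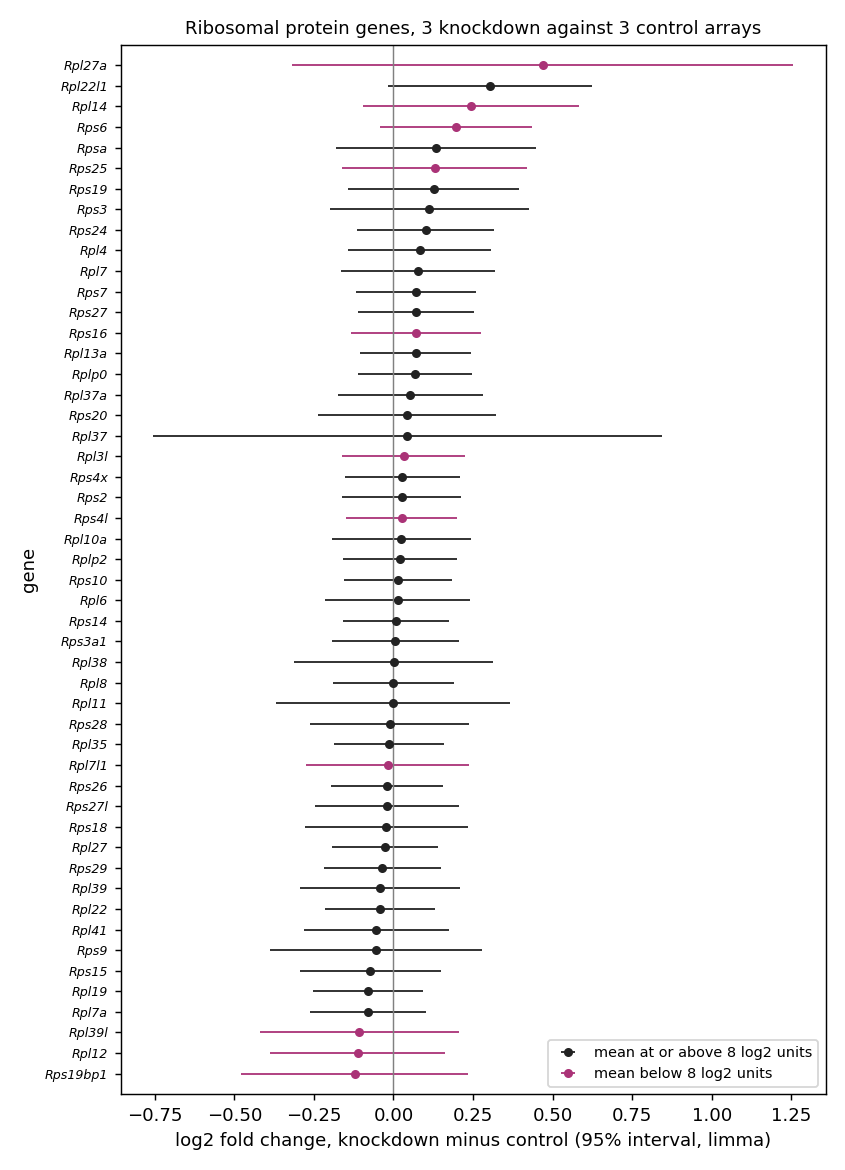
The log2 fold change of each of the 50 ribosomal protein genes is plotted as a point with its 95% interval (limma, 3 knockdown against 3 control arrays), coloured by whether the mean lies under 8 log2 units. The intervals of all 50 genes span 0, and 38 points lie within 0.1 of it.

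The 39 members with a mean of at least 8 log2 units had means of 9.87 to 11.94 and differed between groups by -0.08 to 0.30, with a median of 0.01. The 11 dimmer members had means of 4.07 to 7.71 and differed by -0.12 to 0.47, with a median of 0.03. Of the 50 genes, Rpl22l1 alone had groups that did not overlap with the knockdown higher, where 2.93% of all genes did, and 0 members had groups that did not overlap with the knockdown lower, where 4.24% of all genes did.

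In the large subunit, 10 members were above 0 and 10 below, with a median difference of 0.00040. Rpl38, a protein known for a selective role in the translation of Hox mRNAs, read 11.42, 11.77 and 11.54 in control replicates 1 to 3 and 11.42, 11.77 and 11.53 in knockdown replicates 1 to 3. The groups were superimposed, with a difference of 0.00 and a 95% interval of -0.31 to 0.31. Rpl11, which with Rpl5 and the 5S ribosomal RNA forms a particle that can bind the p53 regulator Mdm2, read 10.98, 10.57 and 11.03 in the controls and 10.95, 10.66 and 10.97 in the knockdown. Its value was low on the arrays numbered 2 of both groups, and the means were 10.86 ± 0.26 in the controls and 10.86 ± 0.17 in the knockdown (SD, n = 3). Rpl13a, which also has a role outside the ribosome in silencing inflammatory mRNAs, differed by 0.07, with a standard error of 0.07. Rpl10a, at the side of the ribosome where spent tRNA leaves, differed by 0.02. The lowest values among bright large-subunit genes were -0.08 for both Rpl7a and Rpl19, which lay below 0 within all 3 replicate numbers, and -0.05 for Rpl41, the shortest of the ribosomal proteins. Rpl4, Rpl6, Rpl8, Rpl27, Rpl35 and Rpl37a differed by -0.03 for Rpl27 to 0.08 for Rpl4.

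Rpl27a, another large-subunit protein, had the highest fold change of the set over all 6 arrays and also the widest spread. Its probe set read 7.23, 6.59 and 6.70 in the controls and 8.04, 7.04 and 6.85 in the knockdown. Knockdown replicate 1 was the highest and the groups overlapped, with a difference of 0.47 and a standard error of 0.33 (95% interval -0.32 to 1.26). The knockdown array was above the control array within each replicate number, by 0.80, 0.45 and 0.15. Leaving out single arrays moved the difference between 0.11 and 0.70, with the lowest value, 0.11 with a standard error of 0.21, without knockdown replicate 1. The bright probe set that names Rpl27a together with other genes differed by 0.09, with a standard error of 0.07. The larger difference was thus on the dim probe set, and which of them follows the Rpl27a transcript was not tested.

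Rpl14, also of the large subunit, read 6.89, 7.36 and 6.96 in the controls and 7.45, 7.25 and 7.24 in the knockdown on the 1 probe set of its own. Control replicate 2 lay inside the range of the knockdown arrays, while the other controls lay below all of them. The difference was 0.24 with a standard error of 0.14 over all 6 arrays, and 0.39 with a standard error of 0.10 without control replicate 2 (limma, unadjusted p = 0.0083, adjusted p = 0.16). It was 0.15 with a standard error of 0.15 without control replicate 1. Another 5 probe sets name Rpl14 together with the pseudogene Rpl14-ps1, and those differed by 0.13 to 0.20, so that all 6 lay above 0. On 1 of the 5 the groups did not overlap, with 10.79, 10.97 and 10.83 in the controls and 11.09, 11.03 and 11.07 in the knockdown. Its unadjusted p was 0.035 and its adjusted p 1.00 in limma. Over all genes, each on 1 probe set, 2.93% had groups that did not overlap with the knockdown higher. The share over all probe sets was not computed.

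The stalk is a flexible arm of the large subunit that recruits translation factors. Rplp0, its base, read 11.64, 11.68 and 11.61 in the controls and 11.65, 11.78 and 11.71 in the knockdown, a difference of 0.07 with a standard error of 0.08. Rplp2 differed by 0.02. Rplp1, the remaining stalk protein, was covered only by a probe set that also names a predicted gene, and that probe set differed by 0.05.

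In the small subunit, 15 members were above 0 and 6 below, with a median of 0.03. Rps14, a protein of the subunit's platform, had the smallest spread of all 50 genes, with 11.46, 11.42 and 11.44 in the controls and 11.41, 11.48 and 11.45 in the knockdown. The 6 arrays differed from each other by at most 0.07 and the group difference was 0.01. Rps19, whose gene is mutated in the inherited anaemia named after Diamond and Blackfan, read 11.11, 11.45 and 11.16 in the controls and 11.26, 11.41 and 11.42 in the knockdown. Control replicate 2 was the highest of the 6 and the other controls the lowest, and the difference was 0.13 with a standard error of 0.11.

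Rpsa, at the mRNA exit side and also known as a laminin receptor precursor, read 11.46, 11.79 and 11.39 in the controls and 11.55, 11.81 and 11.68 in the knockdown, a difference of 0.13 with a standard error of 0.13. Rps3, at the entry of the mRNA channel, read 11.12, 11.48 and 11.11 in the controls and 11.23, 11.49 and 11.32 in the knockdown, a difference of 0.11. In Rpsa and Rps3 the arrays numbered 2 of both groups were the highest. The lowest small-subunit values were -0.07 for Rps15 and -0.06 for the brightest probe set of Rps9. The direction of Rps9 turned with the probe set, since its other own probe sets differed by 0.09 and 0.24, the latter a dim one whose groups did not overlap. Rps25, which some viral RNAs need to start translation, was dim, at 6.78 to 7.16 in the controls and 6.99 to 7.23 in the knockdown, a difference of 0.13 with a standard error of 0.12. The small-subunit members Rps2, Rps3a1, Rps7, Rps10, Rps18, Rps20, Rps24, Rps26, Rps28 and Rps29 differed by -0.03 for Rps29 to 0.10 for Rps24. Rps10 and Rps26 were, with Rps14, Rpl27 and Rpl35, the 5 members of smallest spread over the 6 arrays.

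Rps6, the substrate of the S6 kinases through which mTOR signalling is often read, was dim on its own probe sets. The brighter of its 2 own probe sets read 6.88, 7.13 and 6.95 in the controls and 7.06, 7.23 and 7.26 in the knockdown. The difference was 0.20 with a standard error of 0.10, and it was above 0 within each replicate number, at 0.18, 0.10 and 0.31. Across all 11 probe sets that name Rps6, alone or with other genes, the difference ranged from -0.06 to 0.25 and was above 0 in 8.

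Among the paralogues, the widest difference was that of Rpl22l1. Rpl22 binds RNA and is known to repress Rpl22l1, its paralogue, which can take its place in the ribosome. Rpl22l1 read 9.73, 10.10 and 10.11 in the controls and 10.23, 10.17 and 10.45 in the knockdown. All 3 knockdown arrays were above all 3 controls, although knockdown replicate 2 exceeded the highest control by under 0.1. The group means were 9.98 ± 0.21 and 10.28 ± 0.15 (SD, n = 3), a difference of 0.30 with a standard error of 0.13 and a 95% interval of -0.02 to 0.62. The unadjusted p was 0.060 and the adjusted p 1.00 (limma). Within replicate numbers 1, 2 and 3 the difference was 0.50, 0.07 and 0.34. Rpl22, on its brightest own probe set, read 11.37, 11.44 and 11.43 in the controls and 11.33, 11.43 and 11.35 in the knockdown. The difference was -0.04 with a standard error of 0.07. Its other own probe sets differed by -0.09 and 0.08, so the direction of Rpl22 turned with the probe set. The contrast between the paralogues was not tested.

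In the other pairs, differences ran from -0.11 to 0.08. Rpl7 differed by 0.08 and Rpl7l1 by -0.02. Rps27 differed by 0.07, and Rps27l, a target of p53, differed by -0.02. Rpl39 differed by -0.04 and Rpl39l, known for its expression in the male germ line, by -0.11, with deposited intensities of 11.6 to 23.1. Rps4x differed by 0.03, and Rps4l was at the floor with deposited intensities of 0.237 to 1.41. Rpl3l, the paralogue of adult striated muscle, was also at the floor, with deposited intensities of 1.52 to 3.85. At 28 hours its probe set read 4.18, 4.20 and 4.13 in the controls and 4.31, 4.16 and 4.13 in the knockdown, while a probe set naming Rpl3 and a predicted gene read 11.59 to 11.77.

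Some members had a dim probe set of their own beside bright ones that they share with other loci. The own probe set of Rps16 read at most 4.21 on any array, while 2 probe sets that name Rps16 with near-identical loci read 11.45 to 11.79. Rpl12 read 5.34 to 5.75 on its own probe set, with a difference of -0.11, and its 2 bright probe sets shared with predicted genes both differed by 0.08. Rps19bp1 differed by -0.12 with a standard error of 0.15.

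**Figure D2:**
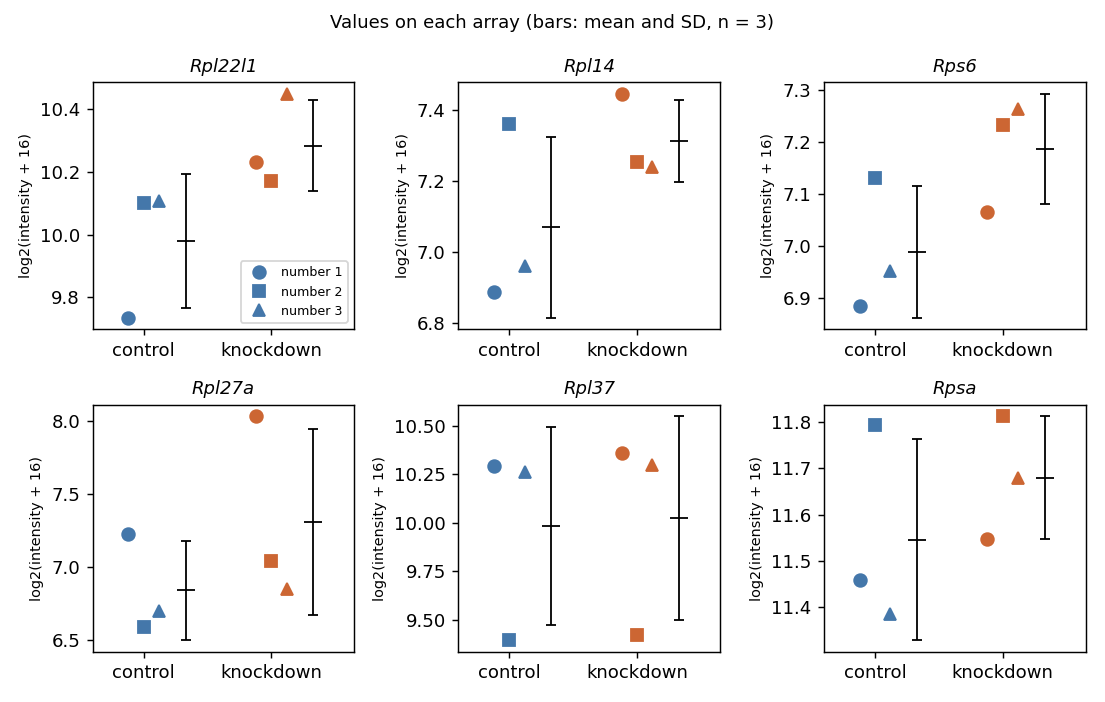
The value of 6 ribosomal protein genes on each array is plotted as log2(intensity + 16) for the control and knockdown groups, with marker shapes for replicate numbers 1 to 3 and bars for mean and SD (n = 3). Each panel has its own vertical scale. Rpl22l1 has knockdown values of 10.17 to 10.45 above its control values of 9.73 to 10.11, while Rpl37 splits by replicate number, at 9.39 and 9.42 on the arrays numbered 2 and 10.26 to 10.36 on the other 4.

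Across the 50 members, deviations tended to repeat on the array of the same replicate number in the other group. After each group's mean was taken off, the deviations of the 50 members correlated between the control and the knockdown array of the same number at 0.77, 0.82 and 0.54 for numbers 1, 2 and 3, across genes, which are not independent replicates. For all 18192 genes the values were 0.34, 0.59 and 0.66. Such a correlation gives most weight to genes with large deviations, and not every member repeated its own. In Rpl14, number 1 was the lowest control array, at 6.89, and the highest knockdown array, at 7.45. The median absolute difference over the members between control replicate 2 and knockdown replicate 2 was 0.05, the smallest of the 15 pairs of arrays, and the other 14 pairs lay at 0.07 to 0.15. The comparison of arrays numbered 2 with the other 4 was added after these values were seen.

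Both arrays numbered 2 lay below the other 4 in 14 members, where 19.3% of all genes did, and above them in 10 members, where 18.1% of all genes did. The median absolute size of the shift was 0.10 over members and 0.13 over all genes. Rpl37, a small zinc-binding protein of the large subunit, had the largest shift of the members. Its own probe set read 10.29, 9.39 and 10.26 in the controls and 10.36, 9.42 and 10.30 in the knockdown, a shift of -0.90 on the arrays numbered 2 beside a group difference of 0.04. The members lower on those arrays also included Rpl11 (-0.37), Rps18, Rps20 and Rps28. The members higher on them included Rpl38, Rps3 and Rpsa, at 0.29 each.

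The arrays numbered 2 also had the lowest 3' to 5' signal ratios, a measure that rises as RNA is shortened from the 5' end. The Gapdh ratio was 0.940 on the control array and 0.933 on the knockdown array with number 2, while the other 4 arrays had 0.974 to 1.10. The Actb ratio was 1.39 and 1.45 on the same 2 arrays, and 1.60 to 1.77 on the others. The part of RNA quality in the shift of ribosomal protein genes was not tested.

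**Figure D3:**
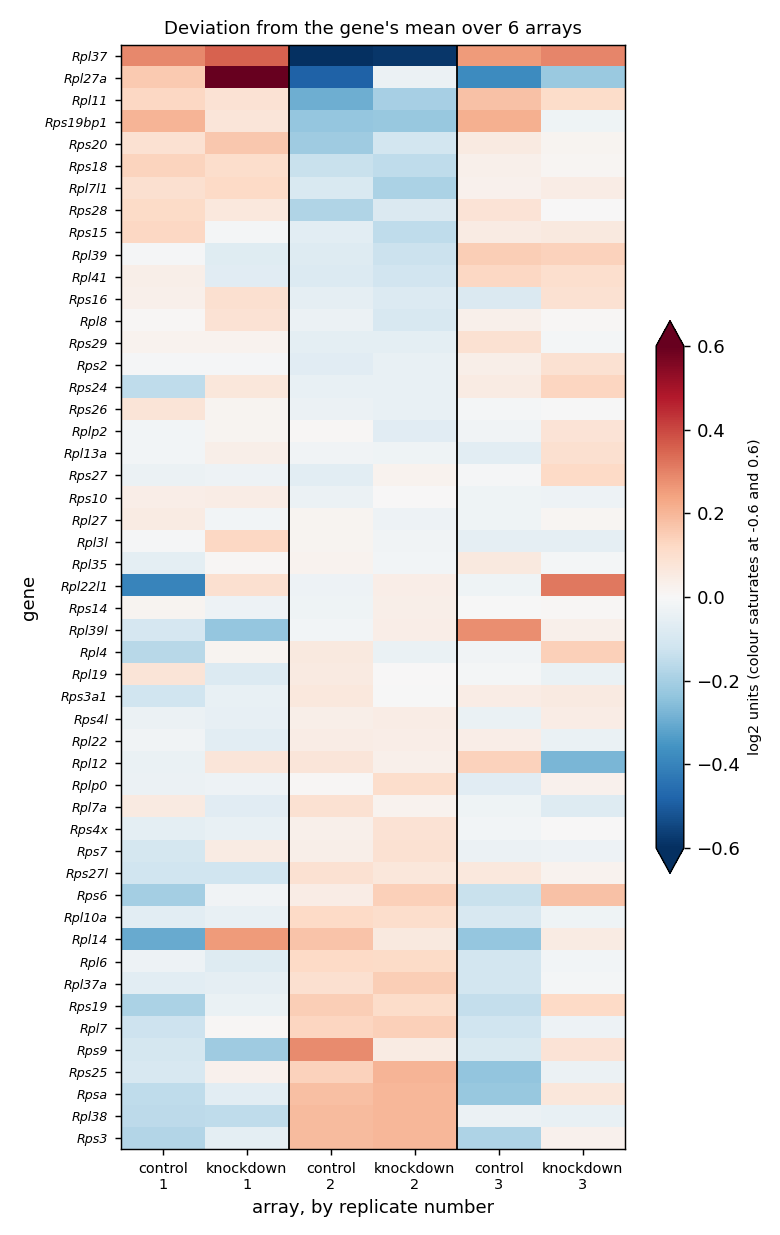
Each cell shows how far 1 of the 50 genes on 1 of the 6 arrays lies from that gene's mean over the arrays, in log2 units, with the arrays ordered by replicate number. The control and knockdown columns of the same number tend to resemble each other, though not in every gene, and the columns numbered 2 hold 14 genes below and 10 genes above all other arrays.

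In some genes the shift differed between probe sets. Over probe sets, 30 of the 106 lay lower on both arrays numbered 2 and 20 lay higher, beside 17.6% and 17% of all 45033. Rpl27 had 1 own probe set at 11.18, 11.14 and 11.10 in the controls and 11.11, 11.09 and 11.14 in the knockdown, with a shift of -0.01. A second read 10.23, 9.51 and 10.11 in the controls and 10.33, 9.61 and 10.07 in the knockdown, with a shift of -0.62, and the third shifted by -0.45. Probe sets naming Rpl37 with the retrogene Rpl37rt shifted by -0.52, -0.14 and -0.07, against -0.90 for the probe set naming Rpl37 alone. Rps9 had 1 probe set at 0.25 and another at -0.30. Counting own and shared probe sets, 53 of 75 ribosomal protein genes had several. In 14 of those genes at least 1 probe set lay lower and at least 1 higher on both arrays numbered 2. Some of these contrasts rest on dim probe sets. The higher one averaged 4.84 on the arrays numbered 2 and 4.52 on the others for Rpl35, and 5.39 and 5.12 for Rps20. For Rps6, 6 of 11 probe sets lay lower and 1 higher, with shifts from -0.83 to 0.24. In other genes the probe sets shifted together. All probe sets lay lower on the arrays numbered 2 for 4 genes with several, among them Rps21 (5 of 5) and Rpl5 (3 of 3). All lay higher for 2, Rpl10 and Rpsa (2 of 2 each). How often probe sets of 1 gene agree or oppose each other over all genes was not computed.

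**Figure D4:**
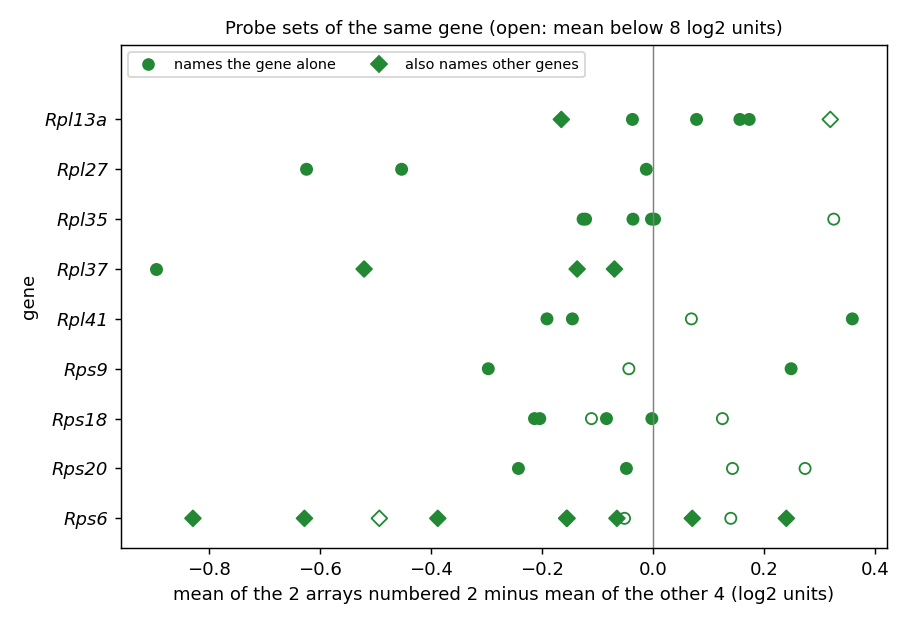
The shift on the arrays numbered 2 (their mean minus the mean of the other 4, in log2 units) is plotted for each probe set of 9 genes, with circles for probe sets naming the gene alone, diamonds for those that also name other genes, and open symbols for means below 8 log2 units. Rpl27 has probe sets at -0.62 and -0.01, and Rps6 spans -0.83 to 0.24.

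Pairing the arrays by replicate number narrowed the errors and left the members uncalled. The standard error went from 0.33 to 0.07 for Rpl37, from 0.33 to 0.13 for Rpl27a and from 0.13 to 0.07 for Rpl38. For Rps14 it was 0.069 with and without the block. The errors and intervals given above are without the block and include the spread between replicate numbers. With the replicate number as a block, 0 of 50 members passed the adjusted threshold, and Rpl22l1, Rpl27a and Rps6 passed at an unadjusted p under 0.05 (limma, adjusted p = 0.55 for each), where 9.01% of all genes did. The knockdown array was above its control within all 3 numbers for 13 members, where 14.5% of all genes were, and below it for 7, where 16.5% were. The 13 include Rpl22l1, Rpl27a, Rplp0, Rps3, Rps6 and Rpsa, and the 7 include Rpl19, Rpl22, Rpl7a and Rps18. The median member difference within numbers 1, 2 and 3 was 0.01, -0.0023 and 0.02.

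Leaving out control replicate 2 turned the count over all genes from 0 to 291, or 1.6%, and called 0 members. At an unadjusted p under 0.05 it gave 4 members, Rpl14, Rpl22l1, Rps19 and Rps6, all higher in the knockdown, where 13.4% of all genes passed. Rpl22l1 then differed by 0.36 with a standard error of 0.15 (limma, adjusted p = 0.36), and Rps19 by 0.23. Without control replicate 1 the differences were smaller, with Rpl22l1 at 0.18 (standard error 0.11), Rps19 at 0.06 (standard error 0.12) and Rps6 at 0.15 (standard error 0.11), and 0 members were called. Over all 6 arrays left out singly, Rpsa ranged from 0.05 to 0.26, Rps3 from 0.04 to 0.24 and Rps25 from 0.04 to 0.23.

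The start of the ribosomal protein genes was examined because the pyrimidine run marks the family. RefSeq promoter windows of assembly GRCm38.p6 were found for 44 of the 50 members. The longest run of C and T within 30 bases of either side of the annotated start had a median of 9 bases in members and 6 in the 17492 protein-coding genes. A run of at least 10 was present in 17 members (38.6%), beside 12.4% of protein-coding genes. Over the window of 250 bases before to 50 after the start, CCGGAAG, the core of an ETS factor site, was present on either strand in 21 members (47.7%), beside 12.9% of protein-coding genes. CACGTG, the E-box bound by Myc, was present in 4 (9.09%), beside 8.91%, and GCCATNTT, the core of a YY1 site, in 7 (15.9%), beside 7.46%. A match to GCCATNTT can share bases with a match to CCGGAAG, and a match describes the sequence only.

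The windows of 6 members are shown with 30 bases before and 20 from the annotated start, each on the plus strand of GRCm38.p6 from RefSeq, with the longest run of C and T in the window in capitals. They are the gene whose groups did not overlap (Rpl22l1), 4 genes named for their values on the arrays numbered 2 (Rpl37, Rpl27, Rpl38 and Rpsa), and the muscle paralogue at the floor (Rpl3l). In order they lie at chr3:28805478-28805527, chr15:5116583-5116632, chr11:101442215-101442264, chr11:114668550-114668599, chr9:120127736-120127785 and chr17:24727796-24727845, across the start of the transcript. The table holds 2 windows for Rpl3l, of which 1 is printed.
Rpl22l1: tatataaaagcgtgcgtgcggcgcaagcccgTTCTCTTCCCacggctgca
Rpl37: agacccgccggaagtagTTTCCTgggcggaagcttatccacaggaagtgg
Rpl27: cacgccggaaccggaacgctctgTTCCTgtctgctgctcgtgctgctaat
Rpl38: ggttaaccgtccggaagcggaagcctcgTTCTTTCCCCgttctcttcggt
Rpsa: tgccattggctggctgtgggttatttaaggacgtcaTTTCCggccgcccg
Rpl3l: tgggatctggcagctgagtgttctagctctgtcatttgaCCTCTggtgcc
The runs of Rpl22l1 and Rpl38 are 10 bases long and begin within 2 bases of the start. Rpl37 has 6, and Rpl27, Rpsa and Rpl3l have 5 in the printed stretch. Within 30 bases of either side of the start, Rpsa has a longer run of 7 that lies outside the printed stretch in whole or in part.

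The ribosomal protein genes without a probe set of their own gave similar values. The 110 probe sets that name such a gene, or a member, together with other genes had a median difference of 0.05, with 79 above 0, 2 at an unadjusted p under 0.05 and 0 called (limma). The 106 member probe sets had a median of 0.03, with 69 above 0, 1 at an unadjusted p under 0.05, the dim probe set of Rps9 at 0.24, and 0 called. Over all genes, each on 1 probe set, 48.8% were above 0 and 3.3% passed at an unadjusted p under 0.05 in limma. The same shares over all probe sets were not computed, and several probe sets can read 1 gene. Rpl3, which reaches toward the peptidyl transferase centre, differed by -0.03 on its bright probe set. Rpl5, the partner of Rpl11, differed by 0.02 on its bright probe set, and Rpl10, which joins the large subunit late in its assembly, by 0.01 and 0.03. A probe set naming Rpl36a and its paralogue Rpl36al together differed by 0.11. Since the signals of such probe sets mix several loci, they are not counted among the members.

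Lists of genes that make, use or regulate ribosomes also had 0 genes called. Of 77 ribosome biogenesis factors, 37 were above 0 and 40 below, with a median of -0.01. Imp3, part of the complex that processes the small-subunit RNA, was the 1 of them at an unadjusted p under 0.05, at 0.24 with a standard error of 0.09. On the arrays numbered 2, 41 of the 77 lay below all other arrays and 7 above, where 19.3% and 18.1% of all genes did, and the list's mean was 7.02 and 7.01 there and 7.15 to 7.24 on the other 4.

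Of 37 translation initiation factors, 24 were above 0 and 13 below, with a median of 0.05. Eif1b, a start codon selection factor, read 7.60, 7.77 and 7.71 in the controls and 8.01, 7.86 and 7.91 in the knockdown, 0.23 with a standard error of 0.09. Eif6, which keeps the subunits apart, differed by -0.17 with a standard error of 0.10. Of 12 elongation and termination factors, 10 were above 0, with a median of 0.04. Eef1a2, the elongation factor isoform of mature muscle and neurons, differed by 0.25 with a standard error of 0.12, while the common isoform Eef1a1 differed by 0.02. Fau, which encodes a ubiquitin-like protein fused to a small-subunit protein, differed by 0.01.

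Of 29 genes of RNA polymerases I and III and of ribosomal DNA transcription, 13 were above 0 and 16 below, with a median of -0.01. Polr3g, a polymerase III subunit that is high in growing and undifferentiated cells, read 4.60, 5.07 and 4.52 in the controls and 5.43 and 5.30 in knockdown replicates 1 and 3, while knockdown replicate 2 lay inside the control range. The difference was 0.51 with a standard error of 0.18. These are dim values, since 4 is the floor of the scale and 5 is an intensity equal to the offset of 16. Taf1d, a subunit of the polymerase I selectivity factor, differed by 0.34 with a standard error of 0.14. Of 23 regulators around Myc and mTOR, 10 were above 0 and 13 below, with a median of -0.02. Mxi1, an antagonist of Myc, read 7.80, 7.38 and 7.57 in the controls and 6.76, 7.39 and 7.14 in the knockdown, -0.48 with a standard error of 0.18. Deptor, an inhibitor of mTOR, differed by 0.26 with a standard error of 0.14. All of these named genes had an adjusted p of 1.00 in limma, and the groups overlapped in Polr3g, Mxi1, Taf1d, Deptor, Eef1a2 and Eif6 and not in Eif1b and Imp3.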

How the data were processed

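RNA of 6 C2C12 samples, 3 per group, was hybridised to 1 Affymetrix mouse array each. The authors deposited linear intensities, 1 per probe set and array, made with GCOS and PLIER, per the submitters' processing notes. How the arrays were scaled to each other is not stated in those notes. Of 45101 probe sets, 64 controls were left out, as were 4 probe sets of Gngt1 that held its Entrez number in control replicate 2. Of the remaining 45033, 34941 name 1 gene in the platform annotation, 932 several, and 9160 are unnamed here. All 50 members matched a RefSeq gene table of GRCm38.p6 by Entrez number, and 0 symbols differed.

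Values were taken as log2(intensity + 16), so fold changes understate those of dim genes, and quantile normalized because the upper quartiles of the columns differed by 0.15, above the limit of 0.1. A gene was represented by its brightest probe set naming it alone, with no filter on dim genes. The comparison used limma 3.58.1 (R 4.3.3) on all 6 arrays without a block, two-sided through lmFit and eBayes, with Benjamini-Hochberg adjustment over all 18192 genes and a threshold of 0.05. Standard errors are limma's moderated ones. The fit was run on simulated data with independent arrays and larger planted changes than those of the members. That run says nothing on small differences or on values shared by replicate number. The replicate numbers were taken as pairing the arrays, since the deviations of same-numbered arrays correlated at 0.34, 0.59 and 0.66 over all genes, each above 0.1. Having 3 arrays per group limits the precision.

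The members and lists were chosen with earlier results of these data known. Named genes were the paralogue families, the stalk, Rpl5, Rpl11, Rpsa and 7 other fixed members, the 8 highest and 8 lowest fold changes, the 6 smallest p, the 5 largest and 5 smallest spreads, and the 2 smallest p per list. Genes and probe sets named for the arrays numbered 2, Rpl14 shared probe sets and the printed windows were chosen after their values were seen. Alternatives covered scaling, offset, dim genes, choice of probe set, variance model, replicate block and left-out arrays, and the members' mean was added after the data were seen.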

Additional observations from a re-analysis of the deposited data

How the results depend on the processing

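Under 17 other settings of scaling, offset, dim-gene filter, probe set choice, variance model, replicate block and left-out arrays, 0 ribosomal protein genes were called, and the lowest adjusted p of any was 0.084 (limma, without both arrays numbered 2, with the replicate block). The count over all genes was 0 in the full comparison and ranged from 0 to 291 when single arrays were left out, reaching 291 without control replicate 2. It was 120 without both arrays numbered 2 and 721 without both arrays numbered 2 but with the replicate block. With the replicate block on all 6 arrays it was 0, with 1639 genes at an unadjusted p under 0.05 beside 600, and the block changed no call of a member. The members' median difference ranged from 0.0073 to 0.034 when single arrays were left out and was highest without control replicate 2. Their mean difference, a value added after the data were seen, was 0.03 and ranged from 0.03 to 0.05 over the 17 settings.

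Of 535 comparisons of named genes with other settings, 22 changed sign, all among genes with small differences. With the deposited scaling Rpl38 was at -0.00082, Rpl37 at -0.00083 and Fau at -0.0021, and with median centring at -0.0026, -0.0026 and -0.0038. With values averaged over a gene's own probe sets Rpl7l1 was at 0.035, Rps9 at 0.093, Rpl41 at 0.043 and Rpl35 at 0.015. With the brightest probe set free of cross-match suffixes Rpl22 was at 0.078, Rps9 at 0.24, Rpl41 at 0.083 and Rpl35 at 0.063. Without both arrays numbered 2, with or without the block, Rpl7l1 was at 0.022, Rps14 at -0.021, Rpl38 at -0.0023 and Rps9 at 0.033. When single arrays were left out, 31 of 294 comparisons changed sign. The ranges were -0.021 to 0.066 for Rpl3l, -0.082 to 0.072 for Rpl7l1, -0.12 to 0.022 for Rpl39, -0.18 to 0.0047 for Rpl39l, -0.086 to 0.034 for Rps27l, -0.0080 to 0.058 for Rps4x, -0.016 to 0.061 for Rplp2, -0.15 to 0.099 for Rpl11 and -0.0091 to 0.026 for Rps14. They were -0.021 to 0.090 for Rpl10a, -0.098 to 0.096 for Rpl38, -0.12 to 0.072 for Rps9, -0.0054 to 0.037 for Rps10, -0.046 to 0.013 for Rpl35, -0.043 to 0.015 for Rps26, -0.25 to 0.35 for Rpl37 and -0.034 to 0.032 for Fau. Polr3g, at 0.80, passed the adjusted threshold without both arrays numbered 2 when the block was fitted (limma, adjusted p = 0.013). It was then 1 of the many genes counted above for that setting, which leaves few arrays, and its values lie near the floor. The cause of these changes was not tested. Members near the floor of the scale have no measurable order.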
